A study of Mus musculus and Homo sapiens with 24 samples.

Results

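The genes described here are the matrix metalloproteases (MMP), the ADAM and ADAMTS proteases and the tissue inhibitors of metalloproteases (TIMP) in a pair of established skeletal myoblast lines. Human LHCN-M2 cells, immortalised with TERT and CDK4, were sampled at days 0, 1 and 12, and mouse C2C12 cells at days 0, 1 and 6. Each of the 6 groups held 4 libraries of polyadenylated RNA, 24 in all, and every group carries the genotype label control. A gene was taken where its symbol matched MMP, ADAM or ADAMTS followed by a number, or TIMP1 to TIMP4, and where at least 4 libraries of the line held 10 or more reads. In LHCN-M2, 47 of 69 matching symbols met this (13 MMP, 14 ADAM, 16 ADAMTS and 4 TIMP genes) among 58735 gene rows. In C2C12, 42 of 73 did (13 MMP, 13 ADAM, 13 ADAMTS and 3 TIMP genes) among 56748 rows. By symbol, 36 of these genes were shared by the lines, 11 were found in LHCN-M2 alone and 6 in C2C12 alone.

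MMPs are zinc proteases that are made as inactive precursors, are secreted or held at the cell surface, and cut collagens and other matrix proteins. ADAMs are membrane proteins that mostly release the outer parts of other membrane proteins, although some, such as ADAM11, ADAM22 and ADAM23, lack the zinc-binding site and work in adhesion. ADAMTS proteases are secreted and cut proteoglycans, procollagens and other matrix proteins, and TIMPs block the active site of MMPs and of some ADAM and ADAMTS proteases. In muscle, MMP2 and MMP9 are known from matrix remodelling during growth and repair, and ADAM12 from myoblast fusion.

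Library totals ran from 33030258 to 48546621 reads in LHCN-M2 and from 32795699 to 43827517 in C2C12, and the metalloprotease and inhibitor genes held 0.54% to 0.823% of them in LHCN-M2 and 0.343% to 0.424% in C2C12. Levels are in CPM, the usual count scaled to library size, over totals scaled by TMM. Of 8 skeletal muscle markers, 7 rose and MYF5 fell in LHCN-M2 at day 12 against day 0, and 8 rose in C2C12 at day 6 against day 0; MYOG was at 0 counts in LHCN-M2 at day 0 and averaged 361.9 CPM at day 12. Leukocyte markers summed to 2.36 to 4.77 CPM in LHCN-M2, with TYROBP at 0 counts, and to 18.5 to 25.9 CPM in C2C12, with Adgre1 at 0 counts. Endothelial markers summed to at most 20.1 CPM in LHCN-M2, with CDH5 at 0 counts, and 1.67 CPM in C2C12, and adipocyte markers to at most 2.78 and 8.38 CPM. Neural markers summed to 4.73 to 12.2 CPM in LHCN-M2; in C2C12 they summed to 36.5 to 43.1 CPM at day 0, 156 to 169 CPM at day 1 and 491 to 536 CPM at day 6. Day 0 replicate 2 of LHCN-M2 stood apart from the other day 0 libraries on the third principal component of all genes (-72.5, against 19.1 to 29.9), and day 12 replicate 1 stood apart less (-22.3, against 4.41 to 9.27). In C2C12, day 6 replicate 2 stood apart from its day on the third component of that line (44.5, against -28.3 to -6.55). For the genes in which 1 of the LHCN-M2 libraries named lay far from the rest of its day, the change at day 12 against day 0 is given with and without it. The labels do not say whether replicates were separate cultures, so each p-value reflects only how far these libraries differ among themselves, and that difference may be technical.

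Levels per kilobase of gene length spanned a wide range. In LHCN-M2 at day 0 the order was TIMP1, MMP14, MMP2, ADAM9 and ADAMTS1, with 278, 254, 210.5, 102 and 100.3 CPM per kilobase. TIMP1, at 208 to 465, overlapped both MMP14 (238 to 295) and MMP2 (202 to 221), while MMP14 lay above MMP2 in every library. Day 0 replicate 2 alone put TIMP1 first: without it TIMP1 averaged 215.5 and MMP14 240.0 CPM per kilobase, and MMP14 lay above TIMP1 in each of the other 3 libraries. At day 12 the order was MMP2 (483), TIMP1 (329), MMP14 (208), TIMP2 (179.9) and MMP11 (63.7 CPM per kilobase). In C2C12 at day 0 Timp1 (256), Mmp2 (192), Timp2 (102) and Adam9 (84.3 CPM per kilobase) led. At day 6 Timp1 (495), Timp2 (157) and Mmp2 (139.5 CPM per kilobase) led. At the other end, 20 LHCN-M2 and 9 C2C12 genes stayed under 1 CPM per kilobase on all 3 days.

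In LHCN-M2 more of the proteases and inhibitors rose than fell. In the first day 17 of the 45 tested genes rose and 8 fell (edgeR quasi-likelihood test, adjusted p under 0.05, Benjamini-Hochberg over 18214 genes), where 23.4% of all genes rose and 23.5% fell. At day 12 against day 0, 23 rose and 12 fell, against 27.1% and 27.5% of all genes. The ADAMTS genes leaned upwards (11 rose and 2 fell), while the MMPs (5 and 4) and ADAMs (5 and 6) were split. The 23 include MMP1 and MMP28, which met the count rule only through day 12. The 12 include ADAMTS20, which met it only with its day 0 libraries. At day 12 against day 1, 17 rose and 12 fell, against 20.9% and 18.8% of all genes. The median log2 fold change of the 45 genes at day 12 against day 0 was 0.6, beside -0.0096 over all genes. The libraries did not overlap for 32 of the 45 genes at day 12 against day 0 (48.6% of all genes), for 22 at day 1 against day 0 (43.6%) and for 31 at day 12 against day 1 (45.8%). ADAMTS17 and ADAMTS3 were under the filter on low counts and were not tested. Without day 0 replicate 2 and day 12 replicate 1, 24 genes rose and 13 fell at day 12 against day 0. Fewer cells of a type and less RNA per cell cannot be told apart in such bulk samples.

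Among the LHCN-M2 MMPs, 5 of 13 rose and 4 fell at day 12 against day 0, where 27.1% of all genes rose and 27.5% fell. Of the 5 that rose, MMP1 and MMP28 met the count rule only through day 12. The steepest rise was that of MMP11 (stromelysin-3, ENSG00000099953, chromosome 22 from 23768226 to 23784316 on GRCh38, forward strand), a secreted MMP that furin activates inside the cell. MMP11 stood at 5.46, 6.73, 7.05 and 4.94 CPM at day 0, at 62.6, 55.9, 61.8 and 62.9 CPM at day 1 and at 350.0, 304, 329 and 337 CPM at day 12. The 3 days did not overlap, and each day lay above the one before. Its log2 fold change was 3.33 ± 0.110 (SE), adjusted p 4.59e-12 at day 1 against day 0 and 5.77 ± 0.121 (SE), adjusted p 2.28e-14 at day 12 against day 0.

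MMP2 (gelatinase A, which cuts denatured collagen and basement membrane collagen) made most of its rise in the first day. It held 999, 1089, 1038 and 1028 CPM at day 0, 2572, 2496, 2482 and 2473 CPM at day 1 and 2383, 2286, 2429 and 2426 CPM at day 12. All day 1 and day 12 libraries lay above all day 0 libraries, with a log2 fold change of 1.27 ± 0.0548 (SE), adjusted p 6.57e-11 at day 1 and 1.20 ± 0.0547 (SE), adjusted p 8.39e-11 at day 12, both against day 0. MMP14 (MT1-MMP, the membrane protease that activates MMP2 together with TIMP2) was highest at day 1 and lowest at day 12. It stood at 1074, 1317, 1061 and 1079.5 CPM at day 0, 1533, 1461, 1533 and 1558 CPM at day 1 and 962, 916, 893 and 938 CPM at day 12. Day 1 lay above and day 12 below all day 0 libraries; the changes were 0.43 ± 0.0729 (SE), adjusted p 0.00019 and -0.29 ± 0.0728 (SE), adjusted p 0.00357 on the log2 scale. Its highest day 0 library was replicate 2; without it the changes were 0.52 (adjusted p 3.54e-09) and -0.20 (adjusted p 0.000518).

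MMP17 (MT4-MMP, anchored by a lipid tail) held 53.8, 95.4, 53.2 and 45.7 CPM at day 0, 60.7, 48.1, 49.5 and 54.4 CPM at day 1 and 21.4, 17.7, 20.3 and 18.5 CPM at day 12. Only the day 12 group lay apart, below both others, and the change at day 12 against day 0 was -1.67 ± 0.186 (SE), adjusted p 2.02e-06, or -1.38 (adjusted p 7.48e-11) without day 0 replicate 2. MMP15 (MT2-MMP) rose by 0.74 ± 0.128 (SE), adjusted p 0.00016 and MMP19 fell, with a log2 fold change of -0.95 ± 0.0879 (SE), adjusted p 2.56e-07. MMP16 and MMP24, also membrane-type, did not pass the test, at -0.24 ± 0.170, adjusted p 0.244 and -0.04 ± 0.236, adjusted p 0.908. At low levels, MMP1 (interstitial collagenase) averaged 2.93 ± 0.271 CPM at day 12 and 0.0913 ± 0.114 CPM at day 0 (SD, n = 4 each), a log2 fold change of 4.97 ± 0.721 (SE), adjusted p 3.1e-05 over 465 and 14 reads. MMP3 (stromelysin-1), 37.6 kb away in the MMP cluster of chromosome 11, moved the other way, with 0.282 ± 0.0343 CPM at day 12 and 1.06 ± 0.434 CPM at day 0, a log2 fold change of -1.90 ± 0.392 (SE), adjusted p 0.000749. MMP28 (epilysin) held 95 reads at day 12 and 4 at day 0 over the 4 libraries of each day. Its log2 fold change of 4.44 ± 1.22 (SE), adjusted p 0.00642 has a large error. MMP1 and MMP28 each held 10 or more reads in 5 libraries and met the count rule only through day 12. Their rises are therefore partly built into the choice of genes.

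The ADAMTS genes of LHCN-M2 mostly rose at day 12 against day 0. Of the 14 tested, 11 rose, ADAMTS1 and ADAMTS20 fell and ADAMTS6 did not pass the test. The median log2 fold change of the 14 was 1.45, and of all genes 27.1% rose and 27.5% fell. ADAMTS20 met the count rule only with its day 0 libraries. Of the 6 tested proteoglycanases, which cut versican and aggrecan, 4 rose and 2 fell. ADAMTS1 was the highest of them at day 0. It held 699.8, 600.5, 748 and 785 CPM at day 0, 206, 206, 198 and 198 CPM at day 1 and 167, 169, 163 and 183 CPM at day 12. Every later library lay below every day 0 library, with log2 fold changes of -1.81 ± 0.0823 (SE), adjusted p 1.17e-10 at day 1 and -2.05 ± 0.0830 (SE), adjusted p 2.1e-11 at day 12.

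ADAMTS5 lies 72.5 kb from ADAMTS1 on the reverse strand of chromosome 21 (ADAMTS1 from 26835747 to 26845409 and ADAMTS5 from 26917912 to 26966513 on GRCh38), and it moved in the opposite direction. ADAMTS5 held 59.1, 41.8, 68.7 and 62.7 CPM at day 0, 214, 241, 232 and 238 CPM at day 1 and 239, 296, 292 and 280.4 CPM at day 12. Day 0 lay below both later days, which overlapped each other, and the change at day 12 against day 0 was 2.25 ± 0.129 (SE), adjusted p 1.05e-09. ADAMTS4, another proteoglycanase, held 8.19, 6.65, 5.57 and 7.16 CPM at day 0, 11.7, 15.1, 14.7 and 12.4 CPM at day 1 and 21.0, 21.8, 22.0 and 22.8 CPM at day 12. Its 3 days did not overlap, and day 12 against day 0 gave a log2 fold change of 1.67 ± 0.126 (SE), adjusted p 2.52e-08. ADAMTS15, which is known in mouse myoblasts for clearing versican around fusing cells, held 0.297, 0.583, 0.155 and 0.421 CPM at day 0, 0.439, 0.600, 0.285 and 0.192 CPM at day 1 and 2.97, 2.04, 2.79 and 3.53 CPM at day 12. Only day 12 lay apart, above both earlier days, with 2.95 ± 0.412 (SE), adjusted p 2.14e-05.

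Of the procollagen N-proteinases, which trim the amino end of fibrillar procollagens, ADAMTS2 held 108, 90.8, 109 and 115 CPM at day 0, 101, 94.4, 108 and 99.8 CPM at day 1 and 188, 214, 215 and 224 CPM at day 12. The first days overlapped and day 12 lay above both, at 0.99 ± 0.0860 (SE), adjusted p 1.27e-07 against day 0. ADAMTS14 held 8.70, 6.81, 8.75 and 8.28 CPM at day 0, 17.1, 13.5, 13.5 and 15.5 CPM at day 1 and 38.7, 47.5, 45.3 and 49.2 CPM at day 12. Each day lay above the one before, with 2.47 ± 0.120 (SE), adjusted p 1.57e-10 at day 12 against day 0. ADAMTS12, which cuts cartilage oligomeric matrix protein, held 105, 62.6, 101 and 109.6 CPM at day 0, 211, 231, 251 and 242 CPM at day 1 and 317, 418, 418 and 407 CPM at day 12. Its 3 days did not overlap, although day 12 replicate 1 lay below the other day 12 libraries, and the change against day 0 was 2.05 ± 0.151 (SE), adjusted p 2.02e-08, or 2.13 (adjusted p 3.52e-08) without it. ADAMTS7, its close relative, rose at day 12 against day 0 (0.76 ± 0.0709 (SE), adjusted p 2.79e-07). Of the rest, ADAMTS9, ADAMTS10, ADAMTS13 and ADAMTS16 rose, with log2 fold changes of 2.83, 1.64, 1.26 and 0.60, and ADAMTS20 fell with -1.98, each from under 4 CPM at day 0. Fibroblast markers moved with these genes: their summed level was 16017 to 16940 CPM at day 12 and 6503 to 6717 CPM at day 0, 6 of the 7 tested rose, THY1 fell and TCF21 was at 0 counts at day 12. Smooth muscle markers moved with them too: their summed level was 781 to 857 CPM at day 12 and 234 to 381 CPM at day 0, and of the 4 tested ACTA2, LMOD1 and TAGLN rose while MYH11 did not pass the test. The part of either marker list in the rises of the line was not tested.

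The ADAM genes of LHCN-M2 were split, with 5 of 14 rising and 6 falling at day 12 against day 0. Of all genes, 27.1% rose and 27.5% fell. ADAM12 (meltrin alpha) held 56.6, 39.8, 66.1 and 62.4 CPM at day 0, 114, 127, 142 and 119 CPM at day 1 and 136, 189.5, 184 and 181 CPM at day 12. Day 0 lay below both later days, with 1.62 ± 0.146 (SE), adjusted p 1.89e-07 at day 12 against day 0, or 1.72 (adjusted p 1.69e-07) without day 12 replicate 1. ADAM9 (meltrin gamma) held 768, 497, 752 and 804 CPM at day 0, 466, 508, 496 and 491 CPM at day 1 and 309, 341, 316 and 309.6 CPM at day 12. Its day 12 libraries lay below all others, while day 0 replicate 2 fell within the day 1 range, and the log2 fold change at day 12 against day 0 was -1.14 ± 0.118 (SE), adjusted p 8.31e-07. ADAM10, which releases Notch and cadherin ectodomains, held 209, 145, 206 and 216 CPM at day 0, 258, 255, 253 and 263 CPM at day 1 and 338, 361, 349 and 343 CPM at day 12. The days did not overlap and each lay above the one before (0.84 ± 0.101 (SE), adjusted p 4.53e-06 at day 12 against day 0). ADAM17, which releases tumour necrosis factor, held 51.1, 31.6, 52.6 and 54.9 CPM at day 0, 95.8, 107, 109.8 and 107 CPM at day 1 and 69.6, 76.6, 81.4 and 82.7 CPM at day 12. It was highest at day 1 and did not overlap between days, with 0.71 ± 0.137 (SE), adjusted p 0.00046 at day 12 against day 0. ADAM19 (meltrin beta) held 316, 189, 301 and 313 CPM at day 0, 302, 298, 359 and 318 CPM at day 1 and 185, 215, 225 and 216 CPM at day 12. Day 0 overlapped both later days, and the fall at day 12 against day 0 was small, -0.41 ± 0.135 (SE), adjusted p 0.0175; without day 0 replicate 1, day 0 replicate 4 or day 12 replicate 1 its adjusted p was 0.0555, 0.0508 and 0.0548. In ADAM9, ADAM10, ADAM17 and ADAM19 day 0 replicate 2 lay below the rest of its day. Without it the log2 fold changes at day 12 against day 0 were -1.27 for ADAM9, 0.73 for ADAM10, 0.56 for ADAM17 and -0.55 for ADAM19 (adjusted p 4.3e-14, 1.41e-10, 1.46e-06 and 1.47e-06), and day 0 of ADAM19 lay above day 12. ADAM8, known from leukocytes and from muscle repair in mice, stayed low, at 1.49, 2.94, 1.73 and 0.842 CPM at day 0, 1.54, 1.29, 1.89 and 1.41 CPM at day 1 and 0.389, 0.721, 0.920 and 0.270 CPM at day 12. Day 12 overlapped day 0 and lay below day 1, and the log2 fold change against day 0 was -1.61 ± 0.422 (SE), adjusted p 0.00446. ADAM23 and ADAM33 rose, with log2 fold changes of 0.81 and 2.56, and ADAM11, ADAM15 and ADAM32 fell, with -1.08, -0.74 and -1.91; ADAM33 rests on 86 reads at day 12 and 14 at day 0. ADAM32 begins 1.84 kb after the end of ADAM9 on the same strand, so counting by strand would not separate reads that run past ADAM9 from ADAM32. Whether the counting used strand is not given in the sources used here.

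The inhibitors of LHCN-M2 did not move as a block. TIMP2, which inhibits MMPs and takes part in MMP2 activation, held 331, 352, 347 and 311 CPM at day 0, 759.5, 762, 746 and 736 CPM at day 1 and 1042, 958, 1083 and 969 CPM at day 12. Each day lay above the one before without overlap, and day 12 against day 0 gave 1.60 ± 0.0660 (SE), adjusted p 2.73e-11. TIMP3, the matrix-bound inhibitor that also blocks ADAM17 and several ADAMTS proteases, dipped first. It held 111, 88.5, 95.9 and 109 CPM at day 0, 42.4, 39.5, 35.6 and 35.0 CPM at day 1 and 242, 259, 278 and 259.9 CPM at day 12. All 3 days were apart, with -1.41 ± 0.0921 (SE), adjusted p 7.07e-09 at day 1 against day 0 and 1.36 ± 0.0913 (SE), adjusted p 6.69e-09 at day 12 against day 0. TIMP1, a broad MMP inhibitor, held 332, 716, 343 and 321 CPM at day 0, 375, 339, 322 and 312 CPM at day 1 and 593, 448, 513 and 476 CPM at day 12. Day 0 replicate 2 stood above every other library of the line. With it the change at day 12 against day 0 did not pass the test (0.24 ± 0.208 (SE), adjusted p 0.34), and without it the log2 fold change was 0.62 with an adjusted p of 1.15e-06. TIMP4 held 0, 0.451, 0.284 and 0.140 CPM at day 0, 0, 0.111, 0.163 and 0.120 CPM at day 1 and 0.503, 0.270, 0.316 and 0.202 CPM at day 12, at most 0.503 CPM in any library, and did not pass the test at day 12 against day 0 (0.56 ± 0.835 (SE), adjusted p 0.598).

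**Figure D1:**
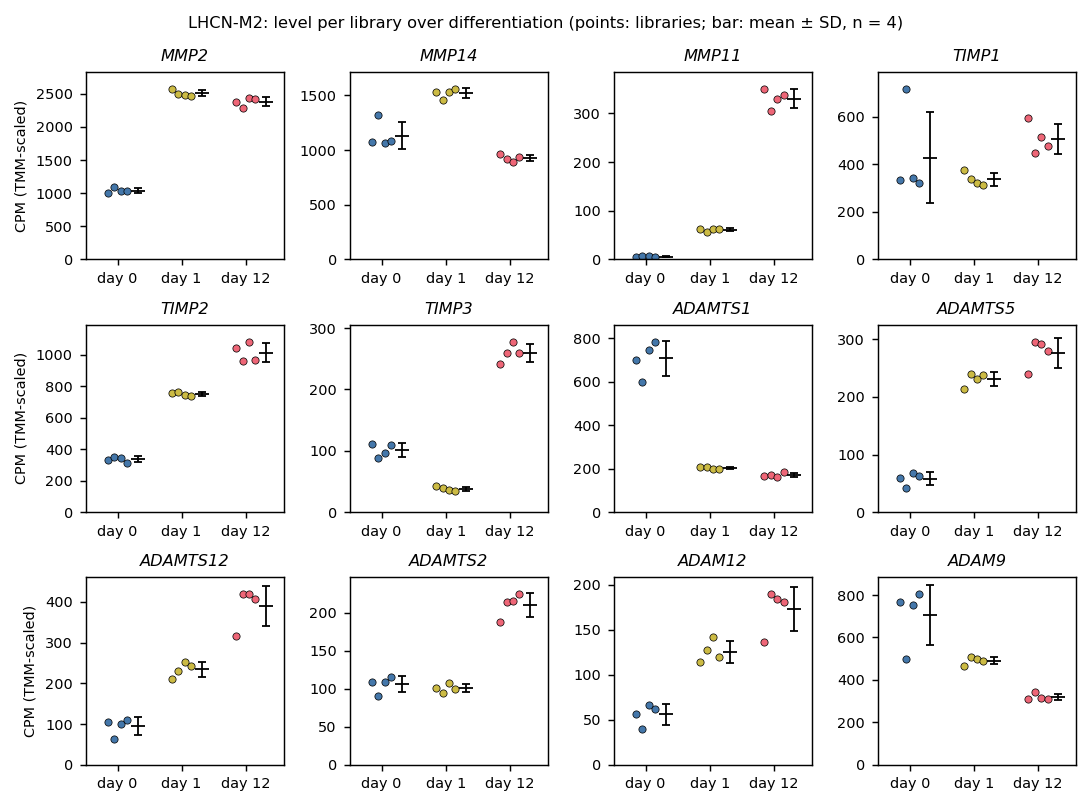
Level of 12 genes in each LHCN-M2 library (CPM over TMM-scaled totals, y axis from 0) by day; points are libraries, the bar beside them is mean ± SD, n = 4. MMP11, TIMP2 and ADAMTS12 step up on each day, ADAMTS1 drops after day 0, and day 0 replicate 2 of TIMP1 stands at 716 CPM.

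In C2C12 the balance after 6 days ran downwards. In the first day 16 of 41 tested genes rose and 12 fell, against 25.9% and 24.4% of the 17065 genes tested. At day 6 against day 0, 12 rose and 22 fell, against 33.1% and 32.5% of all genes. At day 6 against day 1, 11 rose and 23 fell, against 32.8% and 28.6% of all genes. The median log2 fold change at day 6 against day 0 was -0.29 for the 41 genes and -0.028 for all genes. The libraries did not overlap for 32 of the 41 genes at day 6 against day 0 (59% of all genes), for 27 at day 1 against day 0 (45.7%) and for 34 at day 6 against day 1 (56.7%). Adam4 was under the filter on low counts.

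Of the 13 C2C12 MMPs, 10 fell and 3 rose at day 6 against day 0, where 32.5% of all genes fell and 33.1% rose. The 10 include Mmp17, which met the count rule only through its day 0 libraries. Mmp9 (gelatinase B) held 7.62, 10.8, 8.06 and 9.44 CPM at day 0, 24.1, 17.0, 18.8 and 17.6 CPM at day 1 and 0, 0.303, 0 and 0 CPM at day 6. All 10 of its day 6 reads came from replicate 2, against 1284 reads at day 0, and the log2 fold change was -7.02 ± 0.406 (SE), adjusted p 3.29e-12. The rise at day 1 against day 0 (1.11 ± 0.211 (SE), adjusted p 0.000168) was not called by DESeq2, with an adjusted p of 0.165. The human gene did not meet the count rule in LHCN-M2, with 6 reads over all 12 libraries.

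Mmp11, the gene with the steepest rise in LHCN-M2, fell in C2C12. It held 110.0, 129, 116 and 111 CPM at day 0, 55.8, 49.4, 49.2 and 48.6 CPM at day 1 and 30.5, 35.5, 31.7 and 28.9 CPM at day 6. The 3 days did not overlap and each lay below the one before, with -1.88 ± 0.0732 (SE), adjusted p 4.8e-15 at day 6 against day 0. Mmp2 held 623, 666, 643 and 652 CPM at day 0, 713, 668, 695 and 685 CPM at day 1 and 491, 467, 456 and 466 CPM at day 6. Day 6 lay below the rest (-0.46 ± 0.0441 (SE), adjusted p 1.04e-08), while days 0 and 1 lay close together: the change at day 1 was 0.10 ± 0.0440 (SE), adjusted p 0.0786, and it passed in each of the fits that left out a library or used DESeq2 (adjusted p 0.0121 to 0.0494). Mmp14 held 281, 289.6, 319 and 286 CPM at day 0, 451, 438, 467 and 424 CPM at day 1 and 252, 249.9, 254 and 268 CPM at day 6. It was highest at day 1, and day 6 lay below day 0 (-0.20 ± 0.0512 (SE), adjusted p 0.00186).

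Mmp16 (MT3-MMP) held 45.2, 54.4, 48.9 and 51.9 CPM at day 0, 68.2, 75.3, 71.0 and 68.6 CPM at day 1 and 26.6, 21.2, 23.5 and 25.1 CPM at day 6. It too was highest at day 1, and lowest at day 6 (-1.05 ± 0.0751 (SE), adjusted p 9.56e-11 against day 0). Mmp28 held 26.4, 28.5, 25.9 and 27.6 CPM at day 0, 18.2, 15.5, 18.4 and 16.5 CPM at day 1 and 8.32, 9.53, 8.61 and 9.69 CPM at day 6, each day apart from the others (-1.58 ± 0.0883 (SE), adjusted p 1.79e-12 at day 6 against day 0). Mmp17, Mmp19 and Mmp23 fell as well, with log2 fold changes of -2.82, -0.90 and -0.90. Mmp17 held 20 to 33 reads per library at day 0 and 2 to 6 at day 6. It met the count rule only through day 0, so its fall is partly built into the choice of genes. Mmp15 was an exception among the MMPs, with 0.533 ± 0.181, 2.94 ± 0.789 and 8.23 ± 1.02 CPM on days 0, 1 and 6 and 3.96 ± 0.255 (SE), adjusted p 1.88e-11 at day 6 against day 0.

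A trio of MMP genes from the cluster on mouse chromosome 9, Mmp13 (collagenase-3), Mmp3 and Mmp10 (stromelysin-2), shared promoter motifs and moved differently. The 250 bases before the start of each are shown because they hold both a TGANTCA motif, the element bound by AP-1 factors, and a TATAAA motif, in capitals. They are from RefSeq on GRCm38.p6, forward strand, at chr9:7272264-7272513, chr9:7445572-7445821 and chr9:7502092-7502341.
Mmp13: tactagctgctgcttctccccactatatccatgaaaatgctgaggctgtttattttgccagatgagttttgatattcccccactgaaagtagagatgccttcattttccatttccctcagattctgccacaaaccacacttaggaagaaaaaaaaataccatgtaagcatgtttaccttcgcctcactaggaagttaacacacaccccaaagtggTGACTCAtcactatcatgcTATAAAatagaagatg
Mmp3: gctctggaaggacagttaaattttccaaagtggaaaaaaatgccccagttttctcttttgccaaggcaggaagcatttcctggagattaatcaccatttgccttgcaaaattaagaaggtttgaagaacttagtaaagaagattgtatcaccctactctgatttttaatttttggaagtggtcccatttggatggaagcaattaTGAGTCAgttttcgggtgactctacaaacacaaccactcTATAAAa
Mmp10: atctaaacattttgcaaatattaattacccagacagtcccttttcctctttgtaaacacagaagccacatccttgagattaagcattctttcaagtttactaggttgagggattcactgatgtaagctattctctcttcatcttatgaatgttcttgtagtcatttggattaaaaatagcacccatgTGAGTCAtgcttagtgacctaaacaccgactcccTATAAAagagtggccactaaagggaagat
Of 32851 mouse promoters, 2217 (6.75%) held TGANTCA (its reverse complement also reads as TGANTCA), 4063 (12.4%) held TATAAA, and 399 (1.21%) held both, searched on both strands in the same 250 bases; the motifs cannot overlap in these letters. Of the 27 promoters of the 24 C2C12 genes found in the table, 4 held the first, 4 the second and 3 both. Mmp3 averaged 0.139 ± 0.112 CPM at day 6 and 5.83 ± 1.26 CPM at day 0 (20 and 844 reads; -5.43 ± 0.370 (SE), adjusted p 4.69e-11). Mmp10 averaged 2.26 ± 0.247 CPM at day 6 and 0.374 ± 0.0539 CPM at day 0 (2.58 ± 0.291 (SE), adjusted p 1.12e-07), and Mmp13 1.06 ± 0.256 CPM at day 6 and 0.216 ± 0.216 CPM at day 0 (2.24 ± 0.774 (SE), adjusted p 0.0153). Mmp3 fell, while Mmp10 and Mmp13 rose, all at low levels.

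Among C2C12 ADAMTS genes, 4 rose and 6 fell of 13 tested at day 6 against day 0, where 33.1% of all genes rose and 32.5% fell. Adamts2, the procollagen N-proteinase, held 219.8, 262, 260.0 and 239 CPM at day 0, 206, 196, 226 and 195 CPM at day 1 and 83.4, 71.2, 77.2 and 74.2 CPM at day 6. Day 6 lay well below both earlier days (-1.68 ± 0.0677 (SE), adjusted p 8.39e-15). Adamts12 held 66.1, 86.8, 79.0 and 77.9 CPM at day 0, 58.8, 61.5, 60.4 and 65.5 CPM at day 1 and 32.5, 26.5, 27.4 and 29.6 CPM at day 6. Each day lay below the one before (-1.41 ± 0.0796 (SE), adjusted p 2.07e-12 at day 6 against day 0). Adamts10, which binds fibrillin, held 45.1, 49.7, 44.2 and 58.4 CPM at day 0, 54.9, 49.9, 50.6 and 56.9 CPM at day 1 and 11.8, 13.2, 11.3 and 12.8 CPM at day 6, with day 6 below both earlier days (-2.01 ± 0.0889 (SE), adjusted p 4.04e-14).

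Adamts1 held 40.0, 44.9, 47.6 and 43.5 CPM at day 0, 96.9, 96.4, 113 and 104 CPM at day 1 and 50.7, 46.0, 51.7 and 52.0 CPM at day 6. It peaked at day 1 (1.22 ± 0.0678 (SE), adjusted p 6.99e-12) and came back close to its start, and its small rise at day 6 (0.19 ± 0.0680 (SE), adjusted p 0.0195) was lost when day 0 replicate 1 or 4 or day 6 replicate 3 or 4 was left out (adjusted p 0.0547 to 0.0855). Its neighbour Adamts5 held 92.0, 106, 104 and 93.3 CPM at day 0, 94.5, 112, 126 and 109 CPM at day 1 and 62.0, 53.6, 58.7 and 61.5 CPM at day 6, with day 6 below both earlier days (-0.74 ± 0.0767 (SE), adjusted p 2.89e-08). Adamts4 held 26.3, 30.5, 24.4 and 27.4 CPM at day 0, 71.9, 65.1, 77.2 and 74.4 CPM at day 1 and 39.2, 35.9, 41.2 and 38.1 CPM at day 6. It was highest at day 1 (1.41 ± 0.0750 (SE), adjusted p 3.34e-12 against day 0). Adamts7 held 68.5, 90.2, 77.0 and 81.6 CPM at day 0, 142, 132, 155 and 145 CPM at day 1 and 54.9, 50.5, 53.0 and 54.6 CPM at day 6, also highest at day 1 (0.86 ± 0.0709 (SE), adjusted p 3.37e-09) and lowest at day 6.

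Adamts6 held 52.9, 65.4, 51.8 and 65.2 CPM at day 0, 67.7, 74.5, 71.3 and 73.1 CPM at day 1 and 158, 144, 155 and 145 CPM at day 6. Each day lay above the one before (1.36 ± 0.0731 (SE), adjusted p 1.03e-12 at day 6 against day 0). Adamts16 held 23.9, 29.3, 30.6 and 31.8 CPM at day 0, 49.6, 39.9, 39.9 and 45.0 CPM at day 1 and 77.1, 64.8, 69.0 and 72.7 CPM at day 6, in the same order (1.30 ± 0.0888 (SE), adjusted p 5.05e-11). Adamts15 stayed at 0.708 CPM or less, with 0, 0.301, 0.120 and 0.159 CPM at day 0, 0.134, 0.192, 0 and 0 CPM at day 1 and 0.582, 0.484, 0.708 and 0.339 CPM at day 6, and did not pass the test at day 6 against day 0 (1.87 ± 0.839 (SE), adjusted p 0.0566; adjusted p 0.0494 with DESeq2 and 0.0381 without day 0 replicate 2). Adamts15 met the count rule only through day 6, so a rise at that day is partly built into the choice of genes. Adamts14 fell with -0.29, and Adamts9 and Adamts17 did not pass, at -0.57 and -0.74 (adjusted p 0.552 and 0.0869).

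Of the C2C12 ADAM genes, Adam23 changed most. It held 55.1, 61.5, 63.6 and 60.9 CPM at day 0, 43.8, 41.8, 46.3 and 42.3 CPM at day 1 and 1.09, 1.51, 0.708 and 0.897 CPM at day 6. Days 0 and 1 did not overlap, and day 6 lay far below both, with -5.85 ± 0.125 (SE), adjusted p 2.42e-19 at day 6 against day 0. Adam12 held 28.4, 41.5, 38.8 and 37.1 CPM at day 0, 27.5, 26.3, 27.5 and 27.5 CPM at day 1 and 69.1, 51.1, 60.4 and 63.9 CPM at day 6. It dipped at day 1 and lay above all other libraries at day 6 (0.75 ± 0.0980 (SE), adjusted p 9.45e-07). Adam17 held 119, 121, 126 and 131 CPM at day 0, 128, 136, 132 and 131 CPM at day 1 and 174, 172, 172 and 181 CPM at day 6. Only day 6 lay apart, above the rest (0.49 ± 0.0489 (SE), adjusted p 1.75e-08).

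The other widely expressed ADAMs fell by small steps at day 6 against day 0. Adam9 held 339, 343, 360.5 and 344 CPM at day 0, 258, 259.8, 255 and 258 CPM at day 1 and 299, 278, 303 and 309 CPM at day 6, with no overlap between days and its lowest level at day 1 (-0.22 ± 0.0464 (SE), adjusted p 0.000256). Adam10 held 166, 166, 188 and 169.9 CPM at day 0, 153, 157, 159 and 155 CPM at day 1 and 149, 146, 162 and 154 CPM at day 6, with day 0 above both later days (-0.17 ± 0.0527 (SE), adjusted p 0.00731). Adam19 held 63.6, 96.3, 79.6 and 84.7 CPM at day 0, 99.951, 104, 116 and 102 CPM at day 1 and 65.4, 60.1, 68.7 and 70.3 CPM at day 6, with days 0 and 6 overlapping (-0.29 ± 0.0906 (SE), adjusted p 0.00758). Adam15 and Adam5 fell with log2 fold changes of -0.37 and -1.32, and Adam11, Adam22 and Adam32, under 2 CPM on each day, did not pass. Adam8 held 19.996, 21.8, 19.3 and 21.7 CPM at day 0, 22.3, 23.0, 25.5 and 21.3 CPM at day 1 and 19.4, 19.6, 19.2 and 19.7 CPM at day 6 and did not pass at day 6 against day 0 (-0.09 ± 0.0780 (SE), adjusted p 0.345).

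All 3 C2C12 inhibitors rose at day 6 against day 0, where 33.1% of all genes rose. Timp1 held 259.8, 232, 205 and 214 CPM at day 0, 212, 178, 160.3 and 171 CPM at day 1 and 437, 500.4, 406 and 415 CPM at day 6. It dipped at day 1, with overlap, and then lay far above both earlier days (0.95 ± 0.0847 (SE), adjusted p 3.17e-09). Timp2 held 384, 408, 395 and 399.5 CPM at day 0, 699.9, 654, 684 and 681 CPM at day 1 and 598, 609, 594 and 652 CPM at day 6, with its peak at day 1 (0.78 ± 0.0457 (SE), adjusted p 1.67e-11) and 0.63 ± 0.0457 (SE), adjusted p 1.27e-10 at day 6 against day 0. Timp3 held 77.4, 101, 97.4 and 97.9 CPM at day 0, 134, 123, 118 and 127 CPM at day 1 and 431, 359, 391 and 389 CPM at day 6. Each day lay above the one before, with 2.07 ± 0.0756 (SE), adjusted p 1.61e-15. Smooth muscle markers fell in C2C12, 4 of 4 tested at day 6 against day 0. Their summed level was 1335 to 1533 CPM at day 6 and 1609 to 1761 CPM at day 0. Fibroblast markers overlapped in C2C12, with a summed level of 10115 to 10546 CPM at day 6 and 9800 to 11265 CPM at day 0. Of the 6 fibroblast markers tested, 3 rose and 2 fell. The part of either marker list in the C2C12 results was not tested.

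**Figure D2:**
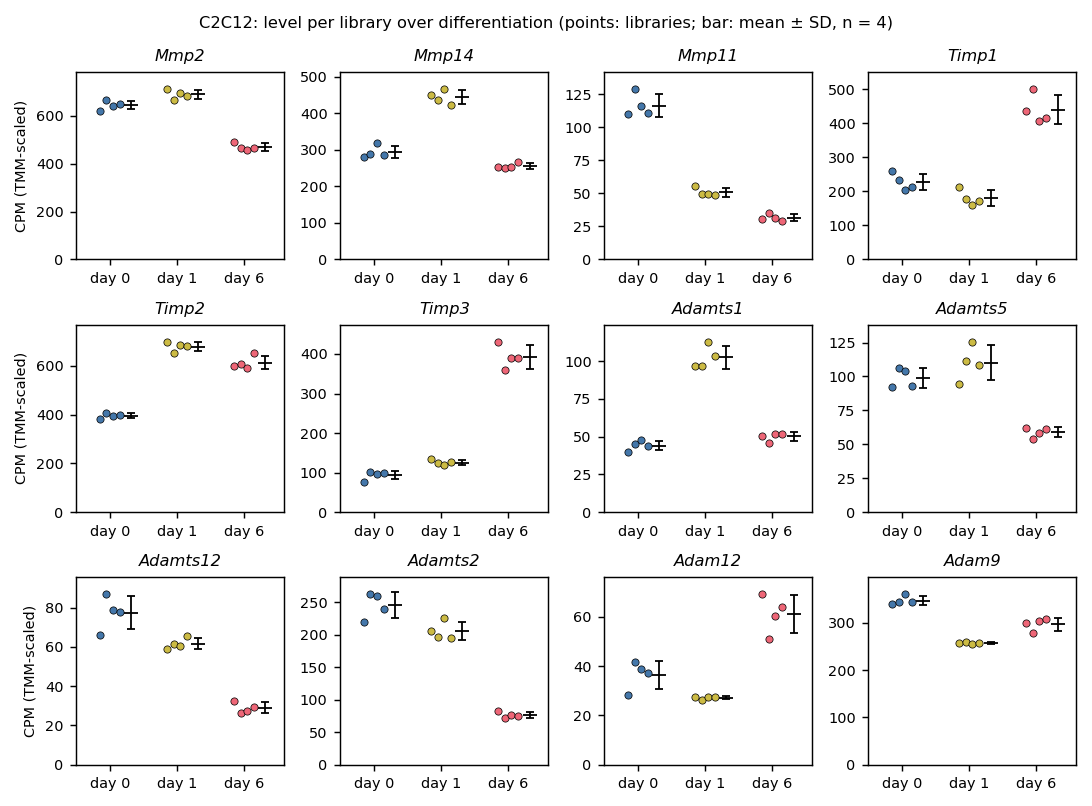
Level of the mouse counterparts of the same 12 genes in each C2C12 library (CPM over TMM-scaled totals, y axis from 0) by day; points are libraries, the bar beside them is mean ± SD, n = 4. Mmp11, Adamts12 and Adamts2 step down to day 6, Adamts1 peaks at day 1, and Timp1 and Timp3 are highest at day 6.

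**Figure D3:**
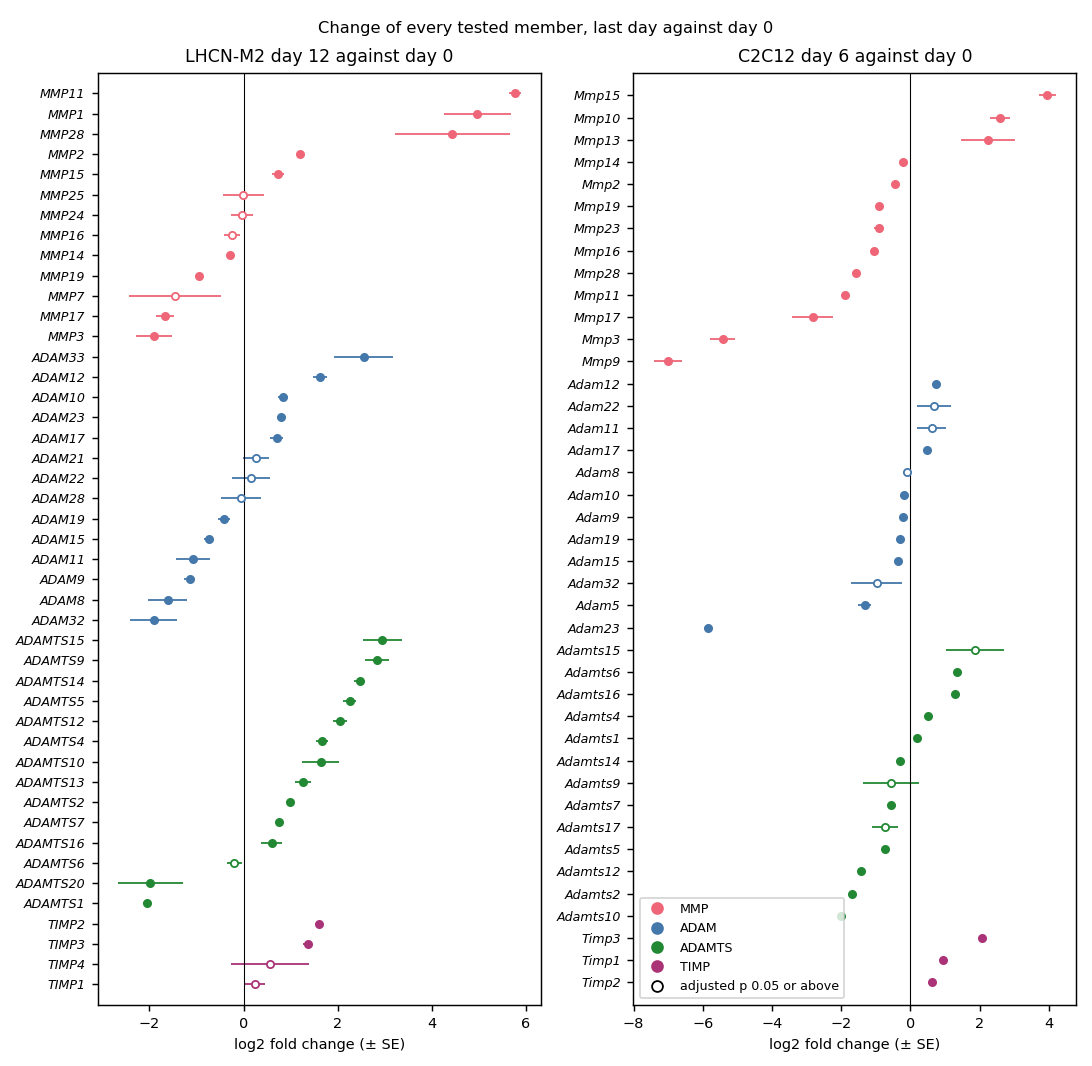
Log2 fold change ± SE of the last day against day 0 for every tested gene, LHCN-M2 on the left (45 genes) and C2C12 on the right (41 genes), coloured by family; open points did not pass the adjusted p of 0.05. The ADAMTS genes lie mostly right of 0 in LHCN-M2, the MMP genes mostly left of 0 in C2C12.

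Summed per kilobase, MMP and TIMP transcripts moved differently in the lines. In LHCN-M2 the MMPs summed to 497 ± 41.2, 890.1 ± 15.2 and 773 ± 18.3 CPM per kilobase (SD, n = 4) on days 0, 1 and 12, and the TIMPs to 359.5 ± 125, 360.2 ± 20.3 and 566 ± 47.7. The ratio of the TIMP to the MMP sum ran from 0.601 to 0.979 at day 0, from 0.382 to 0.426 at day 1 and from 0.685 to 0.792 at day 12. Day 1 lay below both other days, and days 0 and 12 overlapped. That overlap rests on replicate 2 of day 0: without it the day 0 ratios ran from 0.601 to 0.638, so that day 12 lay above day 0, and the day 0 TIMP sum was 297 ± 9.13 CPM per kilobase (SD, n = 3). In C2C12 the MMPs summed to 323 ± 10.3, 339 ± 10.4 and 214 ± 4.09 CPM per kilobase on days 0, 1 and 6, and the TIMPs to 369.6 ± 25.0, 393 ± 28.4 and 701 ± 45.5. The ratio ran from 1.06 to 1.29 at day 0, from 1.07 to 1.24 at day 1 and from 3.14 to 3.58 at day 6, so that day 6 lay above both earlier days, which overlapped. MMP14 over TIMP2 per kilobase was lower at the last day in both lines: it was 1.16 ± 0.0817 at day 12 and 4.26 ± 0.371 at day 0 in LHCN-M2, and 0.273 ± 0.00583 at day 6 and 0.485 ± 0.0302 at day 0 in C2C12. The order of the MMP and TIMP sums in C2C12 depends on the division by gene length. In CPM without it, the C2C12 MMPs summed to 1221, 1366 and 841 on days 0, 1 and 6. The C2C12 TIMPs summed to 718, 986 and 1445 CPM, above the MMPs only at day 6. These sums are levels of RNA and hold no measure of protein or activity. They are descriptions without a test.

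**Figure D4:**
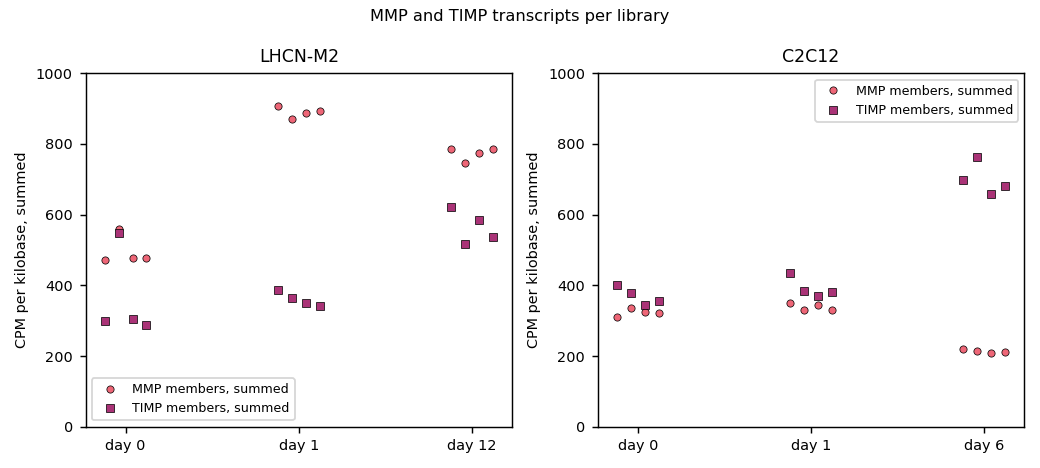
Summed level of the MMP genes (circles) and of the TIMP genes (squares) in each library, in CPM per kilobase of gene length, by day, LHCN-M2 left and C2C12 right. The TIMP sum lies below the MMP sum in every LHCN-M2 library and above it in every C2C12 library, by the widest margin at day 6. In CPM not divided by gene length, the mean C2C12 TIMP sum lay below the mean MMP sum at days 0 and 1.

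The lines were compared on 35 genes tested in both, by the difference of their changes (LHCN-M2 minus C2C12, an interaction term in a fit of all 24 libraries over 10953 symbols). In the first day 11 genes changed more upwards in LHCN-M2 and 8 more downwards, where 26% and 34% of all symbols did. At the last day against day 0, 17 and 10 did, where 31.2% and 40% of all symbols did. Days 12 and 6 are the last days of the lines and are not the same time, and the median difference over all symbols at the last day was -0.129, and single values stand beside that shift. At the last day, 11 genes rose in LHCN-M2 and fell in C2C12 (ADAM10, ADAM23, ADAMTS2, ADAMTS5, ADAMTS7, ADAMTS10, ADAMTS12, ADAMTS14, MMP2, MMP11 and MMP28), and ADAMTS1 did the opposite. In both lines 7 rose (ADAM12, ADAM17, ADAMTS4, ADAMTS16, MMP15, TIMP2 and TIMP3) and 7 fell (ADAM9, ADAM15, ADAM19, MMP3, MMP14, MMP17 and MMP19). Of all 10953 symbols, 10.7% rose in LHCN-M2 and fell in C2C12, 15.8% did the opposite, 11.1% rose in both and 11.1% fell in both. MMP28 met the count rule in LHCN-M2 only through day 12, and Mmp17 in C2C12 only through day 0.

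MMP11 differed most, with a log2 fold change of 5.77 in LHCN-M2 and -1.88 in C2C12, a difference of 7.65 ± 0.138 (SE), adjusted p 6.43e-23. For ADAM23 the changes were 0.81 and -5.85 and the difference 6.66 ± 0.165 (SE), adjusted p 1.44e-20. The matrix genes ADAMTS12 and ADAMTS2 differed by 3.46 ± 0.183 (SE), adjusted p 1.97e-14 and 2.67 ± 0.112 (SE), adjusted p 2.34e-16, and MMP2 by 1.66 ± 0.0661 (SE), adjusted p 8.83e-17. For ADAMTS1 the difference was -2.24 ± 0.105 (SE), adjusted p 2.24e-15 at the last day and -3.03 ± 0.106 (SE), adjusted p 2.13e-17 in the first day. MMP15 rose in both lines and less in LHCN-M2 (difference -3.22 ± 0.278 (SE), adjusted p 2.24e-10). Of the inhibitors, TIMP2 rose more in LHCN-M2 (difference 0.97 ± 0.0746 (SE), adjusted p 2.89e-11) and TIMP3 less (difference -0.71 ± 0.122 (SE), adjusted p 1.35e-05). TIMP1 also differed, by -0.70 ± 0.247 (SE), adjusted p 0.014, and by -0.33 without day 0 replicate 2 of LHCN-M2. For MMP14 and ADAM17 the difference did not pass the test, at -0.09 ± 0.0888 (SE), adjusted p 0.377 and 0.21 ± 0.148 (SE), adjusted p 0.198.

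**Figure D5:**
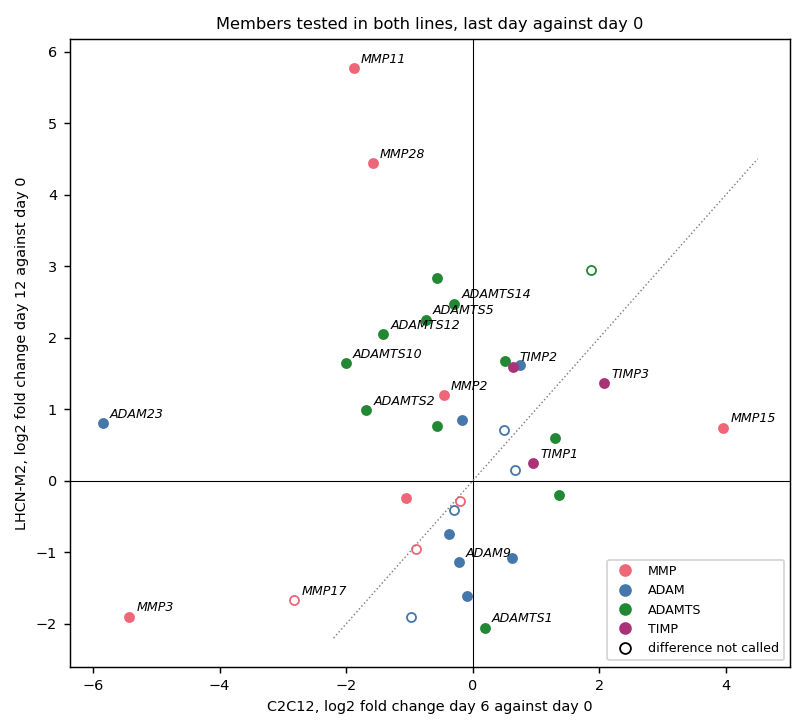
Log2 fold change of the last day against day 0 in LHCN-M2 (y axis) and in C2C12 (x axis) for the 35 genes tested in both lines; open points are genes whose difference between lines did not pass the adjusted p of 0.05, and the dotted line marks equal changes. MMP11, at 5.77 and -1.88, lies farthest above the dotted line, and ADAMTS1 and MMP15 below it.

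Other genes of the pathway, from lists of inhibitors and ADAMTS-like proteins, activators, ADAM partners, astacin proteases and substrates, changed in both directions. Of 14 tested inhibitors and ADAMTS-like genes in LHCN-M2, 4 rose and 6 fell at day 12 against day 0, and in C2C12 4 rose and 6 fell of 10 at day 6. Of 8 tested activators, 1 rose and 5 fell in LHCN-M2, and 4 rose and 1 fell of 7 in C2C12. Of 8 ADAM partners, 2 rose and 1 fell in LHCN-M2 and 3 rose and 3 fell of 7 in C2C12; of astacin proteases and enhancers, 1 rose and 2 fell of 4, and 1 rose and 4 fell of 5. Of the substrates and shed ligands, 10 rose and 4 fell of 19 in LHCN-M2, and 9 rose and 7 fell of 20 in C2C12. Over all genes tested, 27.1% rose and 27.5% fell in LHCN-M2, and 33.1% rose and 32.5% fell in C2C12, and with lists this short many of these counts lie near those shares. Those named are among the genes at 10 CPM or more with the largest changes. A2M, a broad protease inhibitor, averaged 12.7 CPM at day 12 against 4 reads over the day 0 libraries of LHCN-M2. TSPAN33, a partner of ADAM10, had 77.5 ± 5.45 CPM at day 12 and 0.171 ± 0.0901 CPM at day 0 (8.79 ± 0.196 (SE), adjusted p 4.56e-14), and ADAMTSL4 had 81.2 ± 5.66 and 4.26 ± 0.491 CPM (4.25 ± 0.109 (SE), adjusted p 1.45e-13). TFPI2, a protease inhibitor, fell in the same line (-3.03 ± 0.108 (SE), adjusted p 5.12e-12). In C2C12 at day 6 against day 0, Dcn (decorin, also on the fibroblast list) rose (4.86 ± 0.0946 (SE), adjusted p 7.67e-20), as did Hbegf, a growth factor released by shedding (2.22 ± 0.0897 (SE), adjusted p 9.23e-15), and Cdh2, N-cadherin (2.19 ± 0.0866 (SE), adjusted p 6.15e-15). Col1a2, a type I collagen chain, and Rhbdf2, the ADAM17 partner iRhom2, fell (-2.42 ± 0.0550 (SE), adjusted p 6.44e-19 and -2.17 ± 0.0899 (SE), adjusted p 1.37e-14).

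The symbols under the count rule were 22 in LHCN-M2 and 31 in C2C12. In LHCN-M2 they included MMP9, MMP10 and MMP13, with 6, 26 and 14 reads over 12 libraries, and MMP8 with 0. In C2C12 they included Timp4 with 23 reads, Adam33 with 24 and Mmp12 with 0. In LHCN-M2 the tested genes not yet given, MMP7, MMP25, ADAM21, ADAM22 and ADAM28, stayed under 3 CPM on average and did not pass at day 12 against day 0.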

How the data were processed

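RNA of 24 libraries was measured by sequencing of polyadenylated transcripts. The authors deposited whole-number counts of reads per gene, 1 table per line, per the file headers; the submitters' processing notes name featureCounts 2.0.6, HISAT2 2.2.1, fastp and StringTie 2.2.3, with the builds mm10, GRCh38 and hg38, and give no roles. Library totals give the depth. Genes were filtered with filterByExpr, scaled by TMM and tested per line with edgeR 4.0.16 (quasi-likelihood, all 12 libraries of a line, R 4.3.3), two-sided, with Benjamini-Hochberg adjustment over all genes tested. The difference between lines was an interaction term with scaling within each line. Alternatives were DESeq2 1.42.0, other size factors and filters, a replicate block, and leaving out libraries. The tables were normalized separately, so levels are not compared between lines. The test was tried on simulated counts. Library values are given for the TIMPs, for genes known in muscle or as broad proteases, and for any at 10 CPM or more with a 2-fold change. Members and lists were chosen with earlier results of these data known. One gene of the pathway lists is not reported here by name.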

Additional observations from a re-analysis of the deposited data

Results flagged for a closer look

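In 14 of the 141 groups of 4 libraries given library by library, 1 library lay far from the other libraries by Dixon's test at the 95% level. Chance flags about 1 in 20 groups. Genes read in the same libraries are not independent, and many of the 14 groups come from day 0 replicate 2 of LHCN-M2. In LHCN-M2 day 0 replicate 2 this was ADAM10 at 145 CPM (the other libraries of the day 206 to 216), ADAM17 at 31.6 CPM (the other libraries of the day 51.1 to 54.9), ADAM19 at 189 CPM (the other libraries of the day 301 to 316), ADAM9 at 497 CPM (the other libraries of the day 752 to 804), MMP14 at 1317 CPM (the other libraries of the day 1061 to 1079.5), MMP17 at 95.4 CPM (the other libraries of the day 45.7 to 53.8) and TIMP1 at 716 CPM (the other libraries of the day 321 to 343). In LHCN-M2 day 1 replicate 2 this was MMP11 at 55.9 CPM (the other libraries of the day 61.8 to 62.9). In LHCN-M2 day 12 replicate 1 this was ADAM12 at 136 CPM (the other libraries of the day 181 to 189.5) and ADAMTS12 at 317 CPM (the other libraries of the day 407 to 418). In C2C12 day 0 replicate 1 this was Timp3 at 77.4 CPM (the other libraries of the day 97.4 to 101). In C2C12 day 1 replicate 1 this was Mmp11 at 55.8 CPM (the other libraries of the day 48.6 to 49.4). In C2C12 day 1 replicate 2 this was Adam12 at 26.3 CPM (the other libraries of the day 27.5 to 27.5). In C2C12 day 6 replicate 2 this was Mmp9 at 0.303 CPM (the other libraries of the day 0). With the other libraries at 0, any read in 1 library would give this flag.

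The change differed between the lines by the interaction test (adjusted p under 0.05) for these genes, given as the LHCN-M2 minus the C2C12 log2 fold change. At day 1 against day 0 the change was more upward in LHCN-M2 for MMP11 (4.53), MMP17 (1.94), ADAMTS5 (1.84), ADAMTS12 (1.64), ADAM12 (1.58), ADAMTS10 (1.37), MMP2 (1.18), ADAM17 (1.06), ADAM23 (0.98), ADAM10 (0.55) and TIMP2 (0.39). It was more downward in LHCN-M2 for ADAMTS1 (-3.03), TIMP3 (-1.83), ADAMTS16 (-1.35), ADAMTS7 (-0.94), ADAMTS6 (-0.90), MMP16 (-0.68) and ADAMTS4 (-0.44). At the last day against day 0 the change was more upward in LHCN-M2 for MMP11 (7.65), ADAM23 (6.66), MMP28 (5.99), ADAMTS10 (3.66), ADAMTS12 (3.46), ADAMTS5 (3.00), ADAMTS14 (2.77), ADAMTS2 (2.67), MMP2 (1.66), ADAMTS7 (1.33), ADAMTS4 (1.16), ADAM10 (1.01), TIMP2 (0.97), ADAM12 (0.87) and MMP16 (0.81). It was more downward in LHCN-M2 for ADAMTS1 (-2.24), ADAMTS6 (-1.55), ADAM8 (-1.55), ADAM9 (-0.92), TIMP3 (-0.71), TIMP1 (-0.70) and ADAMTS16 (-0.70). These are the values of genes given library by library in either line. MMP28 met the count rule in LHCN-M2 only through day 12, and Mmp17 in C2C12 only through day 0. The differences of MMP28 and MMP17 are therefore partly built into the choice of genes. ADAMTS10 was low in LHCN-M2, at 0.43 CPM on average at day 0 and 1.34 CPM at day 12.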

How the results depend on the processing

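Every count of genes called kept within 1.5 times of its value under DESeq2, other size factors, both other filters, fits of 2 days only and the replicate block. The same held for fits that left out 1 library or both LHCN-M2 libraries that stand apart. Leaving out 1 library moved the LHCN-M2 day 12 against day 0 counts between 22 and 24 higher and between 9 and 14 lower, and the C2C12 day 6 against day 0 counts between 11 and 12 higher and between 22 and 23 lower. At day 1 against day 0 in C2C12 it gave 17 to 21 higher and 10 to 11 lower, beside 16 and 12 with all libraries. At day 12 against day 1 in LHCN-M2 it gave 14 to 17 higher and 9 to 11 lower, beside 17 and 12. At day 6 against day 1 in C2C12 it gave 10 higher and 23 to 24 lower, beside 11 and 23. Replicate numbers did not pair libraries (correlations of deviations between same-numbered libraries ran from -0.1 to 0.0914 in LHCN-M2 and from -0.0527 to 0.0386 in C2C12); with the replicate block 23 genes rose and 12 fell at day 12 against day 0 in LHCN-M2, and 12 rose and 22 fell at day 6 against day 0 in C2C12.

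Some single values changed sign. Without both LHCN-M2 libraries that stand apart, the LHCN-M2 day 1 against day 0 log2 fold changes were 0.21 for ADAM8, 0.0894 for MMP17 and 0.0463 for TIMP1. The differences between lines at day 1 were then 0.0685 for ADAM8 and 0.383 for TIMP1 (adjusted p 0.00556). The TIMP1 difference was 0.0155 with the 1 CPM filter and 0.0433 with the replicate block. Leaving out 1 library gave day 1 against day 0 changes in LHCN-M2 from -0.42 to 0.202 for ADAM8, from -0.343 to 0.0814 for MMP17, from -0.462 to 0.0383 for TIMP1 and from -0.256 to 0.385 for ADAMTS15. It gave differences between lines from -0.572 to 0.0603 for ADAM8, from -2.51 to 4.91 for MMP28 and from -0.125 to 0.375 for TIMP1. The cause was not tested. Depth limits the genes under 1 CPM. The LHCN-M2 TIMP sums and ratios per kilobase without a library that stands apart were added after the data were seen.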
